A study of Rattus norvegicus with 8 samples.

Results

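The septins are a family of GTP-binding cytoskeletal proteins, and the array carries 12 probes for 10 of them, Sept2 to Sept11, among 30367 different probes. Every probe filed under 1 of these 10 gene symbols was taken. The family was chosen by its Sept7 signal, which had been among the largest rises in an earlier comparison of the same rats. The Sept7 values, including its call in the fit over all probes, are therefore a description and are used as no test. All rats were male Wistar rats aged 12 weeks. The 4 stressed rats had undergone daily water avoidance (WA) stress for 10 days. In it the animal stays on a small platform surrounded by water. Another 4 rats served as controls, which the paper describes as handled for 10 days. The labels place the stressed rats 24 hours after the last stress. RNA of the lumbar L6S1 spinal cord, dissected free of meninges, was hybridised to an Agilent rat gene expression array, 1 array per rat, and no batch of animals is named.

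Septins of different subgroups assemble side by side into rods that join into filaments and rings under the plasma membrane. In this scheme Sept2, Sept4 and Sept5 belong to the SEPT2 subgroup, Sept6, Sept8, Sept10 and Sept11 to the SEPT6 subgroup, and Sept3 and Sept9 to the SEPT3 subgroup, and members of a subgroup can stand in for each other. Sept7 is alone in its subgroup and is a core subunit of most septin filaments. In nervous tissue septins are known from synaptic terminals, from the base of dendritic spines and branches, and from filaments that line the inner side of mature myelin.

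Each probe is 60 bases long and reads 1 place on a transcript, named here by the transcript base at which it starts. The probes below carry the main values of the family, and coordinates follow the deposited files, on the rat assembly rn4. The Sept7 probe is shown by its first 30 bases, as are both Sept9 probes, the Sept3 and Sept11 probes are whole, and the Sept4 and Sept6 probes are shown by bases 31 to 60. Capitals mark AATAAA, the letters of the common polyadenylation signal, searched on the probe strand only.
Sept7, base 1470, chr8:24987230-24987289, plus strand: ccaatacgccagcttggacatcagtgtttg
Sept3, base 173, chr7:120654499-120654558, plus strand: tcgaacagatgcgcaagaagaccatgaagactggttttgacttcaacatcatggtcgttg
Sept3, base 946, chr7:120666524-120666878, plus strand: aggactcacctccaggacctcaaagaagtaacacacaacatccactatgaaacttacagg
Sept9, base 3164, chr10:107479272-107479331, plus strand: cctgtgccccagaacccatcaagaatacct
Sept9, base 3674, chr10:107479782-107479841, plus strand: tcatcaggatgactttgtgcctctgtaacc
Sept11, base 1098, chr14:16473500-16473559, minus strand: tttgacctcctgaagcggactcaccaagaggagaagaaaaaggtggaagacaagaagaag
Sept4, base 1295, chr10:75880819-75880878, plus strand: tcagaggaAATAAActaacctatatgtggc
Sept6, base 2004, chrX:7949908-7949967, plus strand: aagggacAATAAAccagaatgtcattacca

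AATAAA occurred in 2547 of the 30367 probes on the array (8.39%), and among the septins in the Sept4 and Sept6 probes. Sept3 and Sept9 are the members with more than 1 probe, and their pairs lie 773 and 510 transcript bases apart. The second Sept3 probe covers a stretch of genome longer than the probe itself. Exons and untranslated regions were not analysed here, since no genome of that assembly was read.

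Values are log2 of the processed signal minus the 75th percentile of the same array, and they are compared only within a probe. The 75th percentile ranged from 1751 to 1945 signal units in the stressed rats and from 1841 to 2335 in the controls, and 22998 to 24064 probes per array were well above background. All 8 arrays sat on 1 slide, with every stressed rat in its first row and every control in the second, so slide row and group cannot be told apart. The array of control replicate 2 stood apart from those of the other controls: its probes near the 5′ end of transcripts, relative to those near the 3′ end of the same 1885 transcripts, lay at 0.22 log2 units, against -0.30, -0.30 and -0.18 in the other controls and 0.09 to 0.17 in the stressed rats. On the first principal component of all tested probes it lay at -46.1, on the side of the stressed rats (-34.5 to -8.23) and away from the other controls (39.4 to 56.3). Whether the RNA of this rat or its label sets the array apart was not tested, and every difference between stressed and control rats given here includes this rat unless stated. For 10 of the 11 septin probes tested, control replicate 2 was the highest or the lowest control. For 9 of them it lay nearer to the stressed mean than to the mean of the other controls. Sept7 was not among the 9. At the probes of Sept4, Sept8 and Sept11, among others, this rat lay above every stressed rat. Results are therefore also given without this rat. Markers of oligodendrocytes (10 of 10), neurons (7 of 7 with a probe), astrocytes (6 of 6) and motor neurons (4 of 4) were above background on all 8 arrays, as were 3 of 3 Schwann cell markers with a probe and 5 of 5 of meningeal fibroblasts. In whole tissue, a change in the number of cells of a type and a change in RNA per cell cannot be told apart.

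Of the 12 septin probes, 11 were well above background on at least 4 arrays and were tested, which covered 9 of the 10 genes, and none was saturated. At an adjusted p below 0.1 in limma, 1 septin probe was higher in the stressed rats and 0 were lower. Over the whole array 3.74% of the 23677 tested probes passed that threshold in either direction, and 2.77% passed it upwards. The single called probe was that of Sept7, which also passed the 0.05 threshold, met by 0.477% of all tested probes. This call was lost with the replicate number as a block and without any 1 of the 7 rats other than control replicate 2, and at 0.05 also with no filter on dim probes. Since Sept7 chose the family, nothing is read from these counts. An unadjusted p below 0.05 was reached by 2 septin probes, Sept7 and the Sept3 probe at base 946, against 20.3% of all tested probes. The 4 stressed and 4 control values did not overlap for 1 septin probe, again Sept7, against 12.1% of all tested probes. Taking the brightest probe of each gene, the median difference between stressed and control rats was 0.07 log2 units, or 0.02 without Sept7, beside 0.06 over all tested probes.

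**Figure D1:**
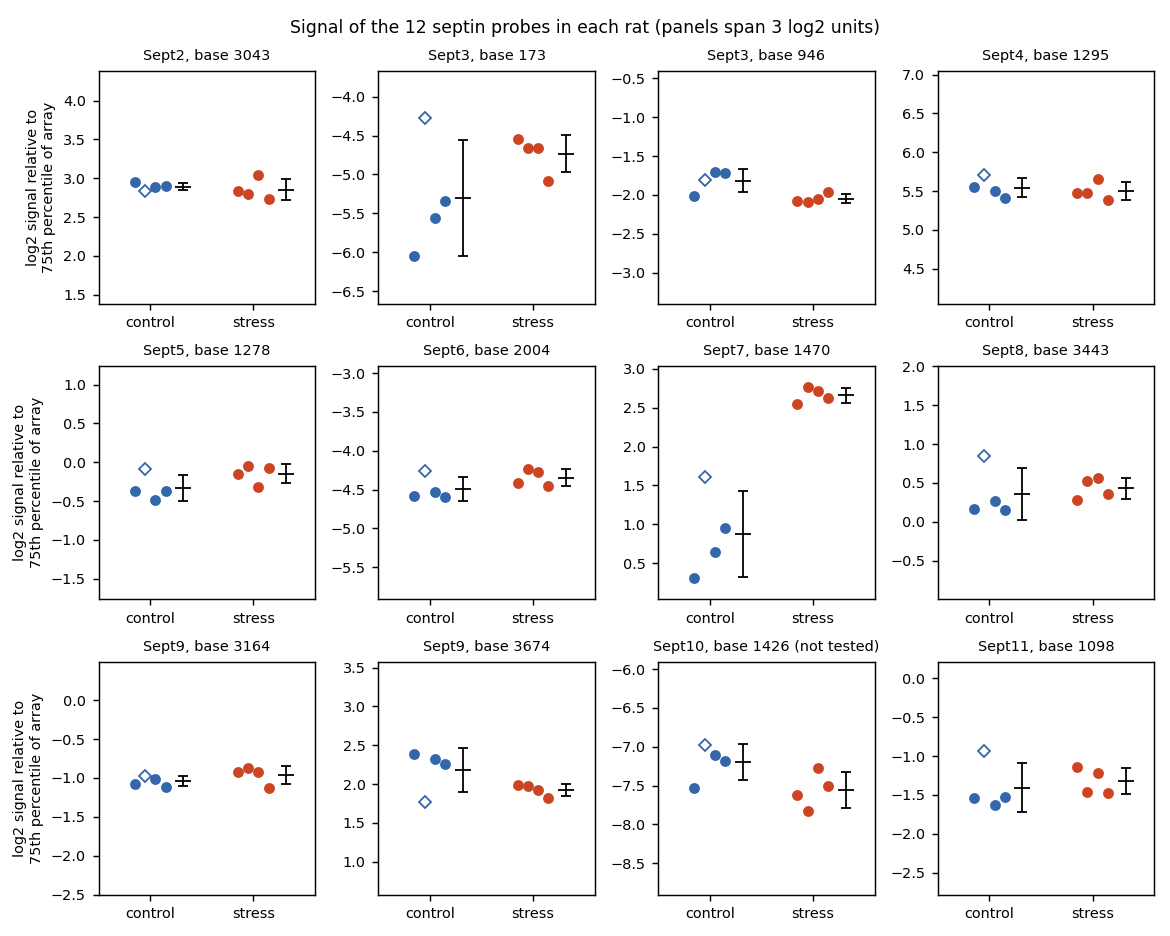
Log2 signal after scaling to the array's 75th percentile (vertical axis) in the control and stressed rats for each of the 12 septin probes, with 1 point per rat, control replicate 2 as an open diamond, and the group mean with its SD as a bar. Sept7 is the panel in which all 4 stressed rats lie above all 4 controls, and control replicate 2 lies at the edge of the control group in most panels.

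Sept7, the subunit without a substitute in the family, was read by the single probe at base 1470. Its signal was 2.54, 2.76, 2.72 and 2.62 in the stressed rats and 0.31, 1.61, 0.64 and 0.95 in the controls. The lowest stressed rat was above the highest control, control replicate 2, and the controls were spread far more widely (SD 0.55, n = 4) than the stressed rats (SD 0.10, n = 4). The difference of the means was 1.78 ± 0.25 log2 units (standard error), a 3.44-fold higher signal, and stood at percentile 99.7 of the differences of all tested probes. Its 2 spots on each array gave differences of 1.76 and 1.81. Without control replicate 2 the difference was 2.03 ± 0.15. The RefSeq annotation of the GRCr8 assembly, in which the gene is called Septin7, holds 5 pseudogene entries of Septin7, and whether their transcripts add signal at this probe was not tested.

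As a description, Sept7 was also set against its filament partners in the same rat. In each rat the Sept7 value minus the mean of the brightest probes of the other 8 tested septins was taken and expressed relative to the control mean. It was 1.68, 1.88, 1.79 and 1.82 log2 units in the stressed rats and -0.52, 0.59, -0.19 and 0.12 in the controls. The stressed rats lay close together and all above control replicate 2, the highest control. The difference of the group means was 1.79 log2 units, with an SD of 0.08 in the stressed and 0.47 in the control rats (n = 4 each). The mean of the other 8 septins differed by -0.01 log2 units between the groups, so the 1.79 restates the Sept7 difference given above.

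Among the controls, Sept7 was ordered like the 5′ minus 3′ difference of the array. Relative to the control mean, Sept7 lay at -0.57 and -0.23 in control replicates 1 and 3, at 0.07 in control replicate 4 and at 0.73 in control replicate 2. The stressed rats, at 1.67 to 1.88, had a 5′ minus 3′ difference of 0.09 to 0.17. It lay below the 0.22 of control replicate 2 and above the -0.30 to -0.18 of the other controls. With this difference as a covariate in the fit, the Sept7 difference between stressed and control rats was 1.19 log2 units. Beyond that fit, what part the array-wide difference had in the Sept7 values was not tested.

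**Figure D2:**
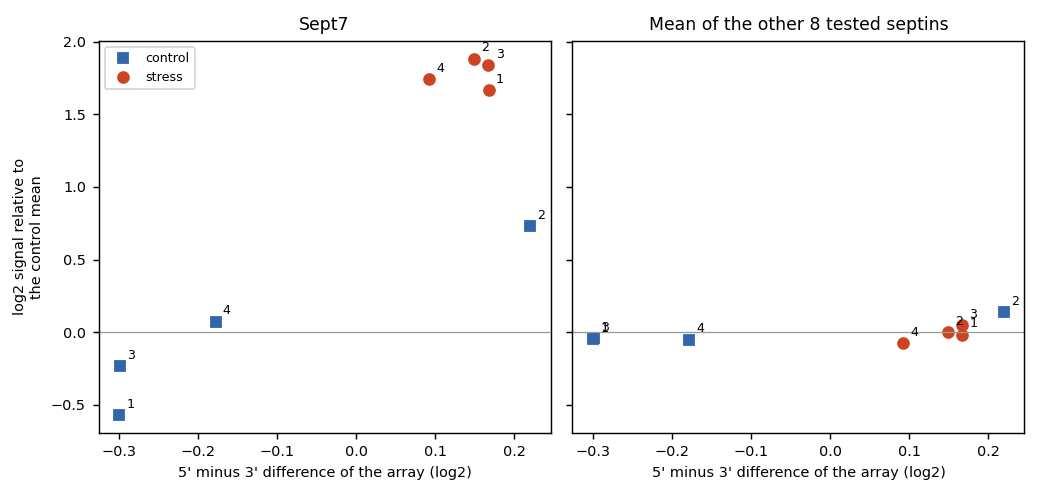
Log2 signal relative to the control mean (vertical axis) against the 5′ minus 3′ difference of the array in log2 units (horizontal axis) for Sept7 on the left and for the mean of the other 8 tested septins on the right, with 1 labelled point per rat. The stressed rats lie between 1.67 and 1.88 for Sept7, above control replicate 2 at 0.73, while the mean of the other septins stays between -0.08 and 0.14 in all rats.

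The SEPT2 subgroup, Sept2, Sept4 and Sept5, showed no call. Sept2, a ubiquitous filament subunit found in dividing cells and in myelin, had signals of 2.83, 2.80, 3.04 and 2.73 in the stressed rats and 2.95, 2.83, 2.88 and 2.90 in the controls. The groups overlapped, and the difference was -0.04 ± 0.08 (limma adjusted p = 0.806). Sept4, a septin of myelinating oligodendrocytes and of dopaminergic terminals, had 5.47, 5.48, 5.66 and 5.39 in the stressed rats and 5.55, 5.71, 5.50 and 5.42 in the controls. Its difference of -0.05 ± 0.09 was smaller than the SD within either group (limma adjusted p = 0.792). Sept5, which binds syntaxin at synaptic vesicles, had -0.15, -0.04, -0.32 and -0.07 in the stressed rats and -0.37, -0.09, -0.48 and -0.37 in the controls. Here 2 stressed rats were above every control, and the difference was 0.18 ± 0.11 (limma adjusted p = 0.360).

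The neighbour of Sept5 on chromosome 11 is Gp1bb, whose gene can be read through from Sept5, and its 2 probes list a Sept5 transcript among their accessions; they were looked at after the values had been seen. The probe at transcript base 626 read -0.76, -0.81, -0.95 and -0.91 in the stressed rats and -0.50, -0.50, -0.57 and -0.41 in the controls, a difference of -0.36 ± 0.07 without overlap (limma adjusted p = 0.0765). The probe at base 885 differed by -0.07 ± 0.10 (limma adjusted p = 0.721). The Sept5 probe and the Gp1bb probes are not the same measurement, and which transcript the Gp1bb probes read was not tested.

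In the SEPT6 subgroup, Sept6, Sept8 and Sept11 likewise showed no call, and Sept10 was not tested. The septins of this subgroup sit next to Sept7 in the rods. Sept6 had signals of -4.42, -4.23, -4.27 and -4.45 in the stressed rats and -4.58, -4.26, -4.53 and -4.59 in the controls. It differed by 0.15 ± 0.10 (limma adjusted p = 0.417), with control replicate 2 inside the stressed range. Sept8, another septin of myelin filaments, had 0.28, 0.52, 0.57 and 0.35 in the stressed rats and 0.17, 0.85, 0.27 and 0.15 in the controls. Control replicate 2 was the highest of all 8 rats, and the difference was 0.07 ± 0.17 (limma adjusted p = 0.823). Sept11, present in dendrites and at synapses, had -1.14, -1.46, -1.22 and -1.47 in the stressed rats and -1.54, -0.94, -1.63 and -1.52 in the controls. Again control replicate 2 was the highest rat, and the difference was 0.09 ± 0.17 (limma adjusted p = 0.781).

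A further probe, filed under TC612969, is described in the files as a Sept8 variant and lies on chromosome 10 near the Sept8 probe. It read 2.89, 2.68, 2.60 and 2.77 in the stressed rats and 3.00 to 3.24 in 3 of the controls. Control replicate 2 was the lowest control at 2.69, and the difference was -0.27 ± 0.13 (limma adjusted p = 0.278). Sept10 was too dim to be tested: its probe was well above background in 3 controls and in 0 stressed rats. Its values were -7.63, -7.83, -7.27 and -7.50 in the stressed rats and -7.53, -6.98, -7.11 and -7.18 in the controls, and the groups overlapped. The ratio of the observed group means was 1.28-fold, higher in the controls. It is not a lower bound, and its 2 spots differed from each other by up to 1.78 log2 units on 1 array.

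The SEPT3 subgroup, Sept3 and Sept9, was read at 2 places per transcript, and the probes of a pair differed in direction. Sept3 is a neuronal septin of presynaptic terminals. Its 5′ probe at base 173 had -4.54, -4.66, -4.66 and -5.08 in the stressed rats and -6.05, -4.27, -5.56 and -5.34 in the controls. All stressed rats were above 3 controls and below control replicate 2, and the difference was 0.57 ± 0.35 (limma adjusted p = 0.374). Its 3′ probe at base 946, printed as 10 spots, had -2.08, -2.09, -2.06 and -1.97 in the stressed rats and -2.02, -1.81, -1.71 and -1.72 in the controls. There 3 stressed rats were below every control, and the difference was -0.23 ± 0.09 (limma adjusted p = 0.205).

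Sept9 is made as several splice forms and is a subunit of the longer septin rods. Its probe at base 3164 had -0.92, -0.87, -0.93 and -1.14 in the stressed rats and -1.08, -0.97, -1.01 and -1.11 in the controls, a difference of 0.08 ± 0.08 (limma adjusted p = 0.589). Its probe at base 3674 had 1.99, 1.97, 1.93 and 1.82 in the stressed rats and 2.39, 1.76, 2.33 and 2.26 in the controls. At this probe the stressed rats were below 3 controls and above control replicate 2, and the difference was -0.26 ± 0.14 (limma adjusted p = 0.331).

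The difference between the probes of a pair was then compared between the groups. For Sept3 the 5′ probe minus the 3′ probe was -2.46, -2.57, -2.60 and -3.12 in the stressed rats and -4.03, -2.46, -3.85 and -3.62 in the controls. The shift between the groups was 0.80 log2 units, with an SD of 0.29 and 0.71, and did not pass a two-sided exact permutation test (p = 0.114, 0.143 after Benjamini-Hochberg adjustment over the 2 pairs). For Sept9 it was -2.91, -2.84, -2.86 and -2.95 in the stressed rats and -3.46, -2.73, -3.34 and -3.37 in the controls. The shift was 0.34 log2 units (two-sided exact permutation p = 0.143, 0.143 adjusted), and the smallest p that 4 against 4 rats allow is 0.0286. In both pairs control replicate 2 lay with the stressed rats and the other 3 controls lay lower, as they did in the 5′ minus 3′ difference over the whole array. What part the array-wide difference had in these pairs was not tested.

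**Figure D3:**
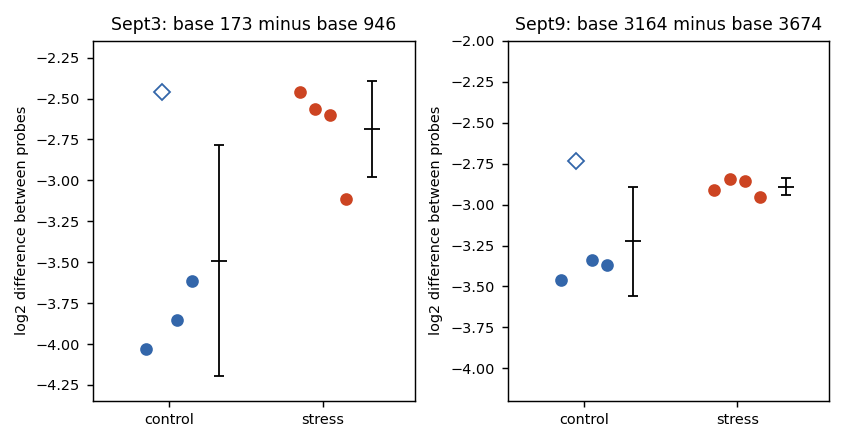
Log2 difference between the 5′ and the 3′ probe (vertical axis) of Sept3 on the left and Sept9 on the right in control and stressed rats, with 1 point per rat, control replicate 2 as an open diamond and bars for the group mean and SD. For both genes 3 controls lie below the stressed rats and control replicate 2 lies among or above them.

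**Figure D4:**
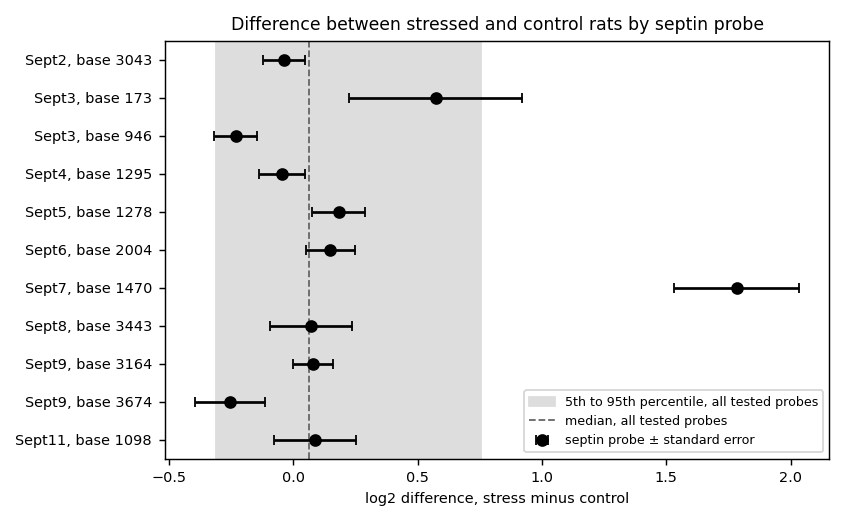
Log2 difference between stressed and control rats (horizontal axis) with its standard error for the 11 tested septin probes, over the range between percentiles 5 and 95 (grey) and the median (dashed) of all tested probes. Sept7 at 1.78 lies outside the grey range, and the other 10 probes lie inside it, between -0.26 and 0.57.

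Without control replicate 2, many more probes were called across the array. At an adjusted p below 0.1 in limma, 7 of the 11 septin probes passed, 5 higher and 2 lower in the stressed rats, against 42.4% of all tested probes. At 0.05, 4 septin probes passed, against 32.3% of all tested probes. The 5′ minus 3′ difference of the array was then -0.30 to -0.18 in the controls and 0.09 to 0.17 in the stressed rats. It separated the groups without overlap, so this difference and group cannot be told apart in these calls. The 5′ probe of Sept3 then differed by 0.92 ± 0.20 (limma adjusted p = 0.0138) and its 3′ probe by -0.23 ± 0.09 (limma adjusted p = 0.0938), so that the probes of this gene were called in opposite directions. Sept5 differed by 0.26 ± 0.08 (limma adjusted p = 0.0499), Sept6 by 0.22 ± 0.07 (limma adjusted p = 0.0552) and Sept8 by 0.23 ± 0.09 (limma adjusted p = 0.0781). The probe described as a Sept8 variant, which is not among the 11, went the other way. Without control replicate 2 it read 3.00 to 3.24 in the controls and 2.60 to 2.89 in the stressed rats. Sept9 at base 3674 differed by -0.40 ± 0.07 (limma adjusted p = 0.00542) and at base 3164 by 0.10 ± 0.08 (limma adjusted p = 0.352). Sept2, Sept4 and Sept11 were not called. With all 8 rats kept and each array weighted by its fit, 7 septin probes passed 0.1 and 6 passed 0.05, against 50.6% and 40.7% of all tested probes. The weight of control replicate 2 was then 0.107, the lowest of the 8 arrays.

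**Figure D5:**
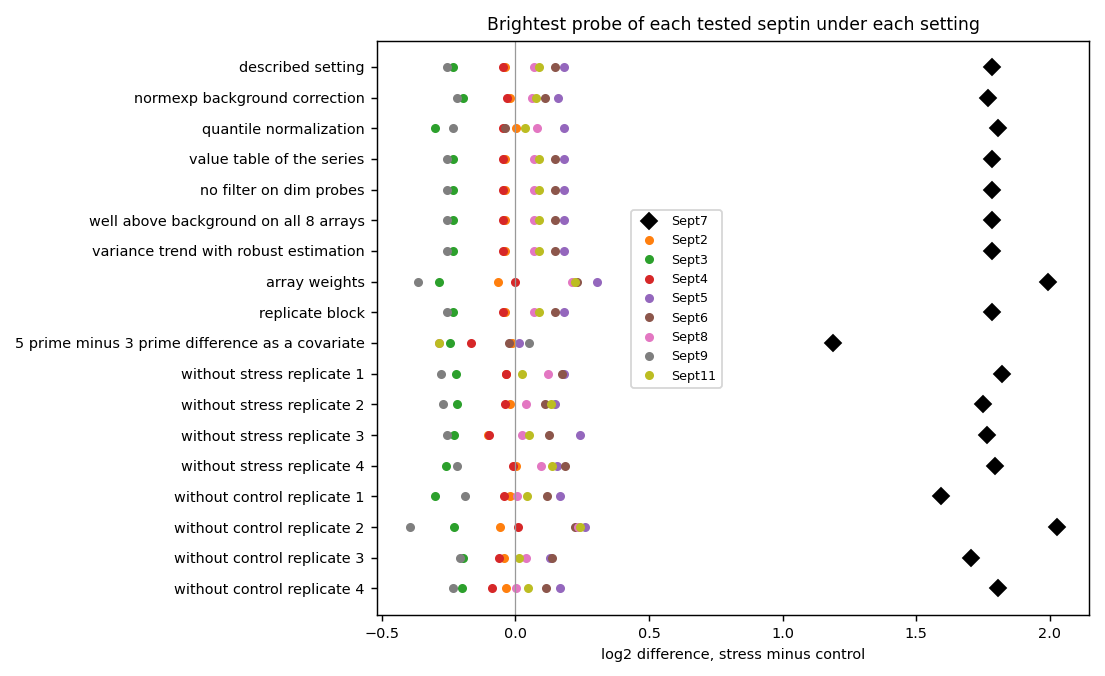
Log2 difference between stressed and control rats (horizontal axis) of the brightest probe of each of the 9 tested septins under each analysis setting (rows). Sept7 lies between 1.19 and 2.03 under every setting shown, to the right of the other 8 septins.

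Other septin symbols were also present on the array. Sept1, a septin of blood cells in the SEPT2 subgroup, read -6.08, -6.32, -5.84 and -5.99 in the stressed rats and -6.88, -5.08, -6.54 and -6.57 in the controls. It differed by 0.21 ± 0.37 (limma adjusted p = 0.755). Sept12, a septin of sperm, was well above background on 0 of 8 arrays, and Sept14 on 1 array of each group.

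Genes whose products regulate or bind septin filaments were read from a list of 25, of which 23 had a probe and all 23 were tested. At an adjusted p below 0.1 in limma 0 were higher and 0 were lower, beside 3.74% of all tested probes called in either direction. At an unadjusted p below 0.05, 4 were higher and 2 lower, beside 20.3% of all tested probes. The median difference was 0.01 log2 units, beside 0.06 over all tested probes. Cdc42, the small GTPase upstream of septin assembly, differed by -0.12 ± 0.10 (limma adjusted p = 0.523). Of its effectors that bind septins, the Borg proteins, Cdc42ep3 was the one whose groups did not overlap, with -2.63, -2.48, -2.74 and -2.67 in the stressed rats and -3.77, -2.78, -3.52 and -3.57 in the controls. Its difference was 0.78 ± 0.20 (limma adjusted p = 0.112), again with control replicate 2 as the control nearest to the stressed rats. The other Borg genes differed by 0.10 for Cdc42ep1, -0.05 for Cdc42ep2, 0.01 for Cdc42ep4 and -0.17 for Cdc42ep5, with overlapping groups.

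Anln, which encodes the septin-binding scaffold anillin, had no probe here. Stx1a, the syntaxin that Sept5 binds, read 0.86, 0.41, 0.43 and 0.83 in the stressed rats and 0.86, 1.08, 0.97 and 0.93 in the controls. It differed by -0.33 ± 0.13 (limma adjusted p = 0.215). Of the 23 genes, 4 more are named here after their values were seen. The widest differences were those of Xiap, an inhibitor of apoptosis bound by a Sept4 splice form, at 1.42 ± 0.36 (limma adjusted p = 0.106), and of Myh9, a non-muscle myosin heavy chain, at 1.27 ± 0.47 (limma adjusted p = 0.201). For both, control replicate 2 lay far above the other controls, at -4.05 against -5.65 to -5.57 for Xiap and at -3.19 against -5.45 to -5.01 for Myh9. Exoc3, a subunit of the exocyst, was lower in all 4 stressed rats than in any control, at 2.51 to 2.57 against 2.71 to 2.79, a difference of -0.21 ± 0.06 (limma adjusted p = 0.128). Rhoa differed by 0.20 ± 0.08, also without overlap (limma adjusted p = 0.232), so that 3 of the 23 genes had groups that did not overlap, beside 12.1% of all tested probes.

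The summed signal of cell type markers overlapped between the groups. For oligodendrocytes, in which Sept4 and Sept8 are known from myelin, the log2 of the sum ranged from 7.89 to 8.43 in the controls and from 8.01 to 8.47 in the stressed rats. Of its 10 genes 1 was called higher and 0 lower, beside 3.74% of all tested probes called in either direction, and the median difference of the list was 0.43 log2 units, beside 0.06 over all tested probes. For neurons the range was 7.62 to 7.74 in the controls and 7.58 to 7.83 in the stressed rats, with 0 called higher and 1 lower of 7, and the median difference was 0.14. Schwann cell markers ranged from 2.76 to 6.11 in the controls and from 2.72 to 4.37 in the stressed rats, with a median difference of -1.03 and 0 of 3 called. Microglial markers ranged from 3.26 to 3.53 and from 3.22 to 3.50, astrocyte markers from 6.46 to 6.69 and from 6.57 to 6.97, with median differences of 0.08 and 0.28 and 0 of 6 called in either list. The part of cell content in the septin values was not tested.

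The gene symbols whose signal followed Sept7 most closely over the 8 rats are given as a description of these arrays. Among 13416 gene symbols, Pearson's r of the brightest probe with Sept7 was 0.997 for Asah1, which encodes acid ceramidase, 0.996 for Rsl24d1, a factor of ribosome assembly, and 0.994 for Hsdl2. It was 0.993 for Myef2 and 0.993 for Foxn3, a forkhead transcription factor. All 5 shared the pattern of Sept7, with the stressed rats close together, control replicate 2 next and control replicate 1 lowest. The differences between the groups were 0.86 for Asah1, 1.98 for Rsl24d1, 0.56 for Hsdl2, 1.31 for Myef2 and 0.31 for Foxn3. These values share the arrays and the control rats that set the Sept7 pattern.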

How the data were processed

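Spinal cord RNA of 4 stressed and 4 control rats was labelled with Cy3, with 1 array per rat. The intensity values that the authors deposited are the processed signals of Agilent Feature Extraction 10.7.3.1, background-subtracted within each array, and their value table holds the same signal as intensity. The 4259 control spots were left out. Of 58717 other spots, outlier spots were set to missing once every array's 75th percentile had been subtracted from its log2 signals, spots of a probe were averaged, and 10 probes missing on an array were not tested. Tests covered the probes that rose well above background on 4 or more of the 8 arrays, judged by a share of 0.5 or more of their spots. Group differences were fitted with limma 3.58.1 in R 4.3.3, with Benjamini-Hochberg adjustment over all 23677 tested probes, after a check on simulated data. Probe pairs were compared with a two-sided exact permutation test over the 70 choices of 4 of 8 rats.

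The members, the lists and the tests were chosen with earlier results of these data known. Named were all septin probes, partner genes called at an adjusted p below 0.1 (otherwise Cdc42, Anln, the Borg genes and Stx1a) and the 5 symbols most like Sept7, with the exceptions marked in the text. All 10 members were matched to RefSeq by accession. The brightest probe stood for a gene. For the 5′ minus 3′ difference, transcripts whose tested probes lay 300 or more bases apart were centred on their mean over the 8 arrays, and the median per array was taken. The alternatives were normexp with an offset of 50, quantile normalization, the value table, other filters, a variance trend, array weights, a block, a covariate, 1 probe per symbol and each array left out. The number of arrays limits the precision. The labels do not say more of how rats were housed or sampled. The p-values set the difference between the groups against the spread between arrays, and slide row differs along with group.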

Additional observations from a re-analysis of the deposited data

Results flagged for a closer look

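In 2 of the 24 groups of 4 septin values that were examined, 1 rat lay far from the other 3 by Dixon's test, and chance gives about 1 in 20, or 1.2 of 24. For the Sept8 probe at base 3443, control replicate 2 at 0.85 was separated from the other controls, at 0.15 to 0.27, by 0.842 of the range of the group. For the Sept11 probe at base 1098, control replicate 2 at -0.94 was separated from the other controls, at -1.63 to -1.52, also by 0.842 of the range. Both concern the same rat, whose array also had a 5′ minus 3′ difference unlike the other controls. Without it Sept8 differed by 0.23 and Sept11 by 0.24 log2 units between stressed and control rats. The part of that array-wide difference in these values was not tested.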

How the results depend on the processing

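The count of septin probes called at 0.1 was 1 with all 8 rats and ranged from 0 to 7 as each rat was left out, with 7 without control replicate 2 and 0 without any other rat. At 0.05 the range was 0 to 4. Over the whole array, 885 probes were called at 0.1 with all rats, 10038 without control replicate 2, and 0 to 72 without any other rat. Array weights gave 7 at 0.1 and 6 at 0.05, and no filter on dim probes gave 0 at 0.05. With the replicate number as a block, 0 septin probes and 0 of all 23677 probes were called at either threshold. Same-numbered rats correlated between -0.09 and 0.31. Of the 4 stressed rats 0, and of the controls 1, correlated best with its own number, so the numbers were not taken as pairs. The Sept7 difference, a description, ranged from 1.19 to 2.03. Sept7 minus the other septins was 1.31 with the 5′ minus 3′ covariate, which also turned Sept6 to -0.024, Sept8 to -0.29, Sept9 to 0.051 and Sept11 to -0.29. Quantile normalization turned Sept2 to 7e-04 and Sept6 to -0.038, the other probe turned Sept3 to 0.57 and Sept9 to 0.079, leaving out each rat gave -0.103 to 0.0024 for Sept2, positive without stress replicate 4, and -0.098 to 0.0097 for Sept4, positive without control replicate 2. The cause was not tested. Signal over background limited Sept10.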
